A study of Mus musculus with 8 samples.

Results

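The comparison described here is the difference of 2 ozone effects in mouse lung: the log2 ratio of ozone over air in C3H/HeOuJ minus the same ratio in C3H/HeJ, called the interaction below. A positive interaction means that ozone over air was higher in C3H/HeOuJ than in C3H/HeJ, and a negative one that it was lower. The 4 groups were lungs of C3H/HeOuJ mice kept in ozone, C3H/HeOuJ mice kept in filtered air, C3H/HeJ mice kept in ozone and C3H/HeJ mice kept in filtered air, each with 2 Affymetrix oligonucleotide arrays of total RNA. All 8 arrays of the series entered the comparison. An exposure of 72 h is stated for both C3H/HeOuJ groups, no time is stated for C3H/HeJ, and neither the ozone concentration nor age, sex or pooling of animals is given. Of 12422 probe sets that are not controls, the 10953 above a low-intensity floor of 69.6 on at least 2 of the 8 arrays were tested. They stand for 7629 named genes.

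C3H/HeJ mice carry a mutation in Tlr4, the cell surface receptor for bacterial endotoxin, and respond poorly to endotoxin, while the closely related C3H/HeOuJ mice have a working receptor. Endotoxin is handed to Tlr4 by Cd14, and the signal passes through Myd88 to NF-kB, which turns on cytokine genes such as Tnf and Il6. Ozone is an oxidant gas that injures the cells lining the airways and lets protein leak from the blood into the airspace. The series' title names this leakiness. A gene whose response to ozone depends on what differs between the substrains would have an interaction other than 0. Marco, a macrophage scavenger receptor, was too dim to be tested, and Tlr4 was not analysed here.

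The deposited values were intensities on a linear scale, 1 per probe set and array. Without the highest and lowest 2% of values, the mean intensity was 800.4 on every array, so the deposited values were already on a common scale. Like brightness of the arrays is given by this scaling. Median intensities lay between 351 and 386 and the share of probe sets at or below the floor between 17.7% and 21.1%. The first HeOuJ ozone array had the highest median and the lowest share. Sftpc and Scgb1a1, which define alveolar type II and club cells of the lung, were among the brightest genes, at 39537 or more and 40169 or more on every array. The arrays did differ in the ratio of 5' to 3' signal of the control probe sets, a measure of how complete the RNA copies are. The actin ratio was 0.766 and 0.756 in HeOuJ ozone, 0.598 and 0.603 in HeOuJ air, 0.505 and 0.53 in HeJ ozone and 0.498 and 0.432 in HeJ air. The Gapdh ratio was 1.34 and 1.18 in HeOuJ ozone, 1.06 and 0.853 in HeOuJ air, 0.864 and 0.776 in HeJ ozone and 0.897 and 0.775 in HeJ air. Both ratios were therefore highest in HeOuJ ozone, the group that set most of the interactions, and the part this has in the results was not tested. Whether the 2 arrays of a group stand for different animals is not stated, so a p-value here covers only the scatter among these arrays, some or all of which may be technical.

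No probe set reached an adjusted p under 0.05 in limma (0 of 10953, 0%); the smallest adjusted p was 0.0509. An unadjusted p under 0.05 was found for 1252 probe sets, 11.4% of those tested, where 548 would be expected if no probe set differed. Of these, 562 (5.13%) were positive and 690 (6.3%) negative. A fit with the control probe sets' 5' to 3' ratio as a covariate had 617 probe sets (5.63%) at that p. With 2 arrays in each group the median standard error of an interaction was 0.427 on the log2 scale, and this small number of arrays limits what can be told apart. The genes below are therefore described by their values, and none is reported as a called difference.

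The 1252 probe sets were mostly ones in which the substrains' ozone effects differed in sign. These effects had opposite signs in 86.4% of them, against 50% of all probe sets tested, and the effect was the larger one in C3H/HeOuJ in 78.2%, against 63.8%. In the positive set the median ozone effect was 0.64 in C3H/HeOuJ and -0.25 in C3H/HeJ. In the negative set it was -0.74 in C3H/HeOuJ and 0.32 in C3H/HeJ. The group mean farthest from the other 3 was HeOuJ ozone for 789 of the 1252 (63%), HeOuJ air for 190, HeJ ozone for 180 and HeJ air for 93. Over all probe sets tested, HeOuJ ozone was farthest for 45.2%. Selection by the interaction itself favours opposite signs, so these shares describe the set and are not a further test.

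**Figure D1:**
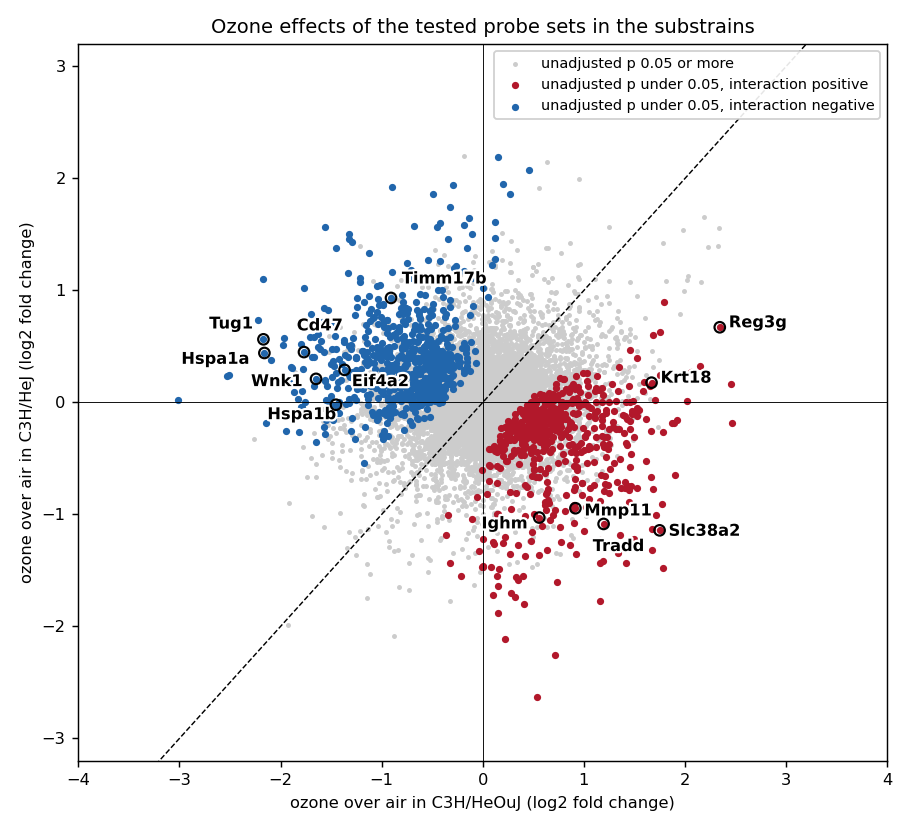
Each point is 1 of the 10953 tested probe sets, placed by its ozone over air effect in C3H/HeOuJ (x axis, log2) and in C3H/HeJ (y axis, log2); the dashed line marks equal effects, and black rings mark named genes. Points of unadjusted p under 0.05 (562 positive in red, 690 negative in blue) lie mostly in the quadrants of opposite sign, and spread farther along the C3H/HeOuJ axis than along the C3H/HeJ axis.

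Strict non-overlap gave smaller sets. In 412 probe sets (3.76%) both ozone arrays lay above both air arrays in C3H/HeOuJ and below both in C3H/HeJ, and in 536 (4.89%) the order was the reverse. The interaction can also be formed from 1 array of each group, in 16 ways. All 16 values had the same sign for 2880 probe sets (26.3%). The 24 genes of smallest p, 12 in each direction, had all 16 values of 1 sign, which their selection by p makes likely.

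The negative genes of smallest p were led by Wnk1, a kinase that controls sodium and chloride transport across epithelia. Its intensity was 2107 and 2555 on the HeOuJ ozone arrays, against 7494 and 7068 on the HeOuJ air arrays, and 7107 and 6856 on the HeJ ozone arrays, against 5572 and 6536 on the HeJ air arrays. Both HeOuJ ozone arrays were below the other 6, while both HeJ ozone arrays were above both HeJ air arrays. The interaction was -1.86 (SE 0.20, 95% interval -2.32 to -1.39, adjusted p = 0.0509), from ozone effects of -1.65 in HeOuJ and 0.21 in HeJ. Wnk1 lies at chr6:119923969-120038695 (GRCm38.p6). The further Wnk1 probe sets were dimmer and gave -0.66 (SE 0.73) and -0.38 (SE 1.00), with wide gaps between replicate arrays.

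Eif4a2, an RNA helicase that unwinds messenger RNA for translation, had 3751 and 4033 on the HeOuJ ozone arrays, against 10503 and 9586 on the HeOuJ air arrays, and 8210.1 and 8131 on the HeJ ozone arrays, against 7163 and 6231 on the HeJ air arrays. The HeOuJ ozone arrays were again the lowest of the 8, and the HeOuJ air arrays were the highest. Its interaction was -1.66 (SE 0.19, 95% interval -2.09 to -1.23, adjusted p = 0.0509). The gene lies at chr16:23107468-23114132 and has 1 tested probe set.

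Cd47, a surface protein that protects cells from being engulfed by macrophages, had 702 and 692 on the HeOuJ ozone arrays, against 1958 and 2878 on the HeOuJ air arrays, and 3070.4 and 2839 on the HeJ ozone arrays, against 1858 and 2517 on the HeJ air arrays. One probe set gave -2.22 (SE 0.30, 95% interval -2.90 to -1.54, adjusted p = 0.115), but the brighter one gave -0.04 (SE 0.21), with 3771 and 3038 in HeOuJ ozone, 3775 and 4013 in HeOuJ air, 3955 and 4704 in HeJ ozone and 4632 and 5042 in HeJ air. The 2 probe sets of Cd47 thus disagreed, and neither can be preferred from the intensities.

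Marcks, a membrane-bound substrate of protein kinase C, had 668 and 726 on the HeOuJ ozone arrays, against 2532 and 2619 on the HeOuJ air arrays, and 2225 and 2222 on the HeJ ozone arrays, against 1372 and 2363 on the HeJ air arrays. Its interaction was -2.19 (SE 0.32, 95% interval -2.93 to -1.45, adjusted p = 0.115). On the HeOuJ ozone arrays it was below all other arrays, while the HeJ air arrays differed from each other by more than the HeJ ozone arrays did. Tug1, a long noncoding RNA, had 263 and 249 in HeOuJ ozone, 1173 and 1129 in HeOuJ air, 1219.8 and 1253 in HeJ ozone and 602 and 1163 in HeJ air. Its interaction was -2.73 (SE 0.41, 95% interval -3.67 to -1.80, adjusted p = 0.115), and its second probe set gave -0.64 (SE 0.68).

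Timm17b, a subunit of the mitochondrial protein import channel, differed from these in shape. Its intensity was 1539 and 1999 on the HeOuJ ozone arrays, against 3567 and 3036 on the HeOuJ air arrays, and 2712 and 3612 on the HeJ ozone arrays, against 1664 and 1617 on the HeJ air arrays. HeOuJ ozone and HeJ air were both low and overlapped, so the interaction of -1.84 (SE 0.26, 95% interval -2.44 to -1.24, adjusted p = 0.115) came from opposite ozone effects of similar size, -0.91 in HeOuJ and 0.93 in HeJ.

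Clic4, an intracellular chloride channel protein, had 5682 and 4291 in HeOuJ ozone, 11165 and 11254 in HeOuJ air, 7513 and 8315 in HeJ ozone and 6359 and 5231 in HeJ air, an interaction of -1.64 (SE 0.24); its further probe sets gave -0.56 (SE 0.20) and 0.47 (SE 0.31). Caprin1, an RNA-binding protein of stress granules, had 1123 and 1199 in HeOuJ ozone, 2428 and 2369 in HeOuJ air, 2286 and 2629 in HeJ ozone and 1517 and 1997 in HeJ air, an interaction of -1.54 (SE 0.23). Tnpo1, a nuclear import receptor, had -1.36 (SE 0.23), Zeb1, a repressor of epithelial genes, -1.14 (SE 0.19), and Rbms1, a nucleic acid binding protein, -1.65 (SE 0.28). In all 3, both HeOuJ ozone arrays were the lowest of the 8. Rbms1 was the only one of them whose second probe set also had an unadjusted p under 0.05, at -0.69 (SE 0.22). The second probe set of Zeb1 gave -1.31 (SE 0.65). Those of Caprin1 and Tnpo1 were dim and had the other sign, at 0.75 (SE 0.67) and 0.46 (SE 0.60).

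Across the 12 negative genes of smallest p (these and Hspa1a, below), both HeOuJ ozone arrays lay below both HeOuJ air arrays in 12, against 20.4% of all probe sets tested, and below all other 6 arrays in 9, against 9.6%. The choice of these genes by p makes both counts likely, and nothing is read from them. The first HeJ air array was below the second in 9 of these 12 and in 500 of the 690 negative probe sets (72.5%), against 47.5% of all probe sets tested. In the 562 positive probe sets it was below in 185 (32.9%). These sets were chosen on the same arrays, so the shares describe them only. Without this array 449 probe sets were negative and 309 positive at an unadjusted p under 0.05. Without the second HeJ ozone array 446 were negative and 348 positive, and without the second HeJ air array 10 probe sets reached an adjusted p under 0.05.

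**Figure D2:**
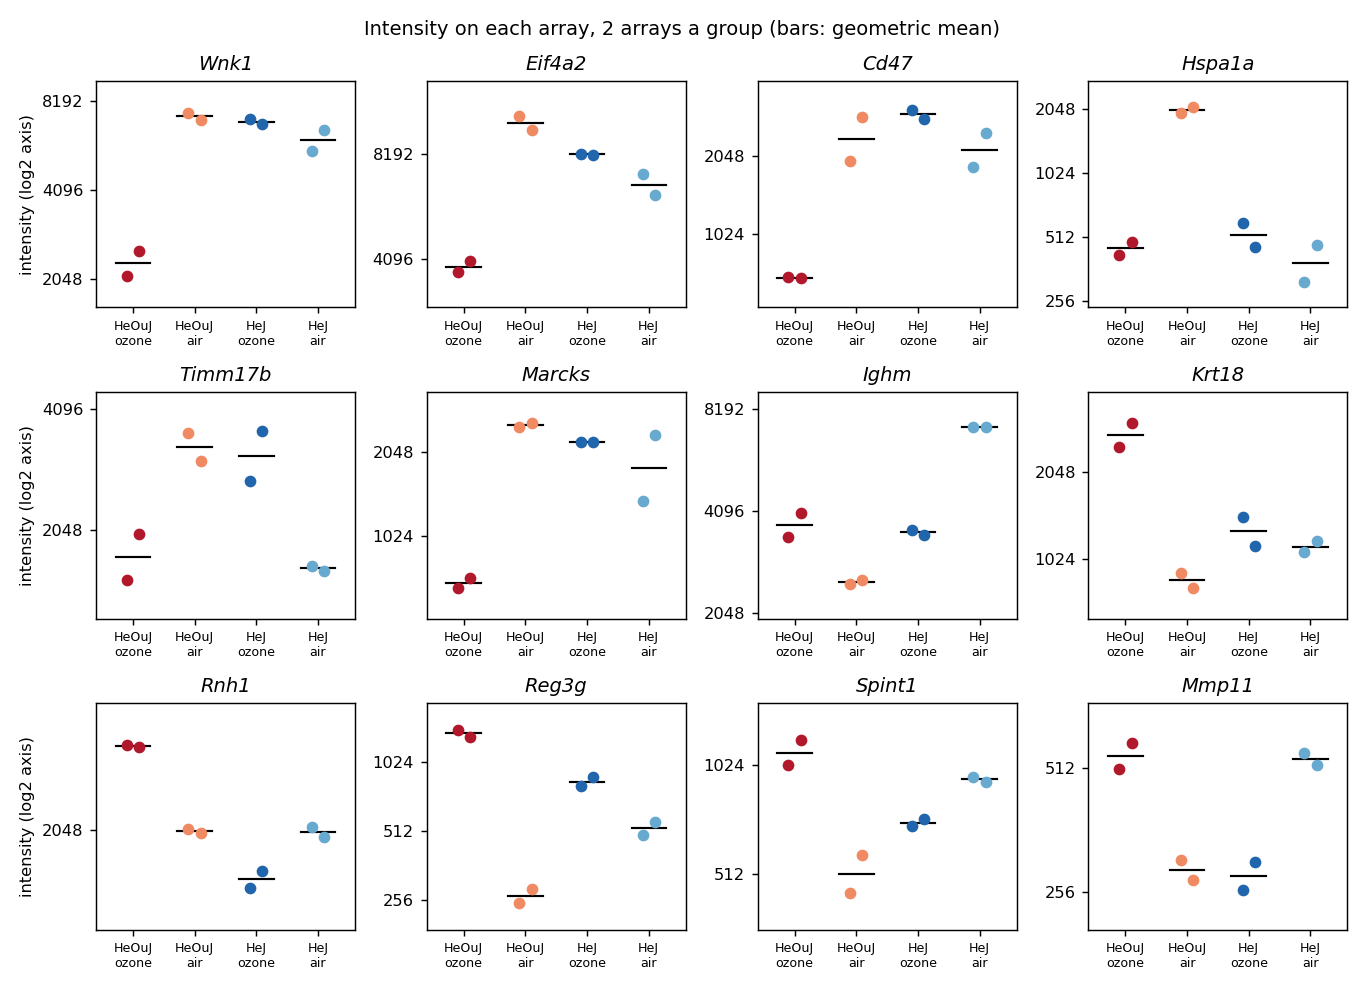
Intensity of 12 genes on each of the 8 arrays (y axis, log2 scale, a separate range for each gene), with groups on the x axis and black bars at the geometric mean of the 2 arrays of a group. Wnk1, Eif4a2, Cd47 and Marcks were lowest in HeOuJ ozone, Krt18, Rnh1 and Reg3g were highest there, Hspa1a was high in HeOuJ air only, and Ighm was highest in HeJ air.

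Among the positive genes, Ighm, the constant chain of the IgM antibody, had the smallest p. Its intensity was 3434 and 4045 on the HeOuJ ozone arrays, against 2502 and 2561 on the HeOuJ air arrays, and 3609 and 3482 on the HeJ ozone arrays, against 7235 and 7226 on the HeJ air arrays. Replicates were close, and the order of the groups was HeJ air, then both ozone groups together, then HeOuJ air. The interaction was 1.59 (SE 0.18, 95% interval 1.18 to 1.99, adjusted p = 0.0509), from ozone effects of 0.56 in HeOuJ and -1.03 in HeJ. On this probe set the ozone groups of the substrains overlapped and the air groups did not. The Ighm probe set of next smallest p had 2844 and 3062 in HeOuJ ozone and 3244 and 2472 in HeOuJ air. It had 545 and 639 in HeJ ozone and 1610 and 1011 in HeJ air, an interaction of 1.17 (SE 0.33). There HeOuJ was above HeJ in ozone and in air, so the order of the groups differed between these probe sets. Ighm lies at chr12:113418826-113422730; 11 of its 13 probe sets were positive, 4 of them at an unadjusted p under 0.05.

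Krt18, a keratin of simple epithelia, had 2505 and 3029 on the HeOuJ ozone arrays, against 919 and 817 on the HeOuJ air arrays, and 1434 and 1139 on the HeJ ozone arrays, against 1083 and 1181 on the HeJ air arrays, an interaction of 1.49 (SE 0.25, 95% interval 0.93 to 2.06, adjusted p = 0.156). Reg3g, an antibacterial lectin made by airway epithelium, had 1401 and 1313 in HeOuJ ozone, 249.7 and 286 in HeOuJ air, 803 and 874 in HeJ ozone and 493 and 562 in HeJ air, an interaction of 1.67 (SE 0.29, 95% interval 1.01 to 2.34, adjusted p = 0.156). Both genes were highest on the HeOuJ ozone arrays and lowest on the HeOuJ air arrays. The second Reg3g probe set was dimmer and gave 0.17 (SE 0.65). Spint1, an inhibitor of serine proteases on epithelial surfaces, had 1023 and 1205 in HeOuJ ozone, 453 and 577 in HeOuJ air, 695 and 725 in HeJ ozone and 951 and 922 in HeJ air, an interaction of 1.52 (SE 0.28, 95% interval 0.88 to 2.16, adjusted p = 0.156). Its groups did not overlap, and ozone over air was 1.12 in HeOuJ and -0.40 in HeJ.

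Rnh1, the cytosolic inhibitor of ribonucleases, had 3181 and 3150.1 in HeOuJ ozone, 2049.5 and 2017 in HeOuJ air, 1512 and 1649.5 in HeJ ozone and 2075 and 1971 in HeJ air, an interaction of 1.00 (SE 0.17, 95% interval 0.60 to 1.39, adjusted p = 0.156). The HeOuJ ozone arrays were the highest and the HeJ ozone arrays the lowest, and the air groups of the substrains overlapped. Echs1, a mitochondrial enzyme of fatty acid oxidation, had 1.59 (SE 0.29), and Nhp2, a protein of the small nucleolar particles that modify ribosomal RNA, 1.48 (SE 0.28). Col9a1, a collagen best known from cartilage, had 1.52 (SE 0.32) and was highest in HeOuJ ozone.

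Mmp11, a metalloproteinase of connective tissue, had 507 and 587 in HeOuJ ozone, 306 and 274 in HeOuJ air, 258 and 301 in HeJ ozone and 556 and 519 in HeJ air. HeOuJ ozone and HeJ air overlapped at the top, and HeOuJ air and HeJ ozone overlapped at the bottom, so the interaction of 1.86 (SE 0.39, 95% interval 0.98 to 2.74, adjusted p = 0.176) came from effects of 0.92 in HeOuJ and -0.95 in HeJ. Tradd, an adaptor that links the Tnf receptor to NF-kB, had 1837 and 1359.9 in HeOuJ ozone, 798 and 598 in HeOuJ air, 895 and 439.8 in HeJ ozone and 1289 and 1375 in HeJ air, an interaction of 2.28 (SE 0.46, 95% interval 1.23 to 3.33, adjusted p = 0.172). Slc38a2, an amino acid transporter, and Haus5, a protein of the mitotic spindle, had larger values, 2.89 (SE 0.47) and 2.72 (SE 0.47), but on dim probe sets, and over the settings they ran from 1.01 to 5.07 and from 0.99 to 3.69. For Haus5 both HeOuJ air arrays were below the floor. For Slc38a2 the HeOuJ air and HeJ ozone arrays were all below the floor of 69.6, and its brighter probe set, with 1254 and 1219.8 in HeOuJ ozone, 1073 and 1178 in HeOuJ air, 1329 and 982 in HeJ ozone and 1039.9 and 1205 in HeJ air, gave 0.11 (SE 0.26).

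None of these 24 genes changed the sign of its interaction in the alternative settings in which its probe set was tested, 19 for Slc38a2 and Haus5 and 20 for the others. Their choice by p on these same arrays makes a kept sign likely, so this is not a further test. With the control probe sets' 5' to 3' ratio as a covariate, Wnk1 had -1.62 (SE 0.29), Eif4a2 -1.86 (SE 0.26), Ighm 1.69 (SE 0.26) and Krt18 1.55 (SE 0.38), and the smallest adjusted p over all probe sets was 0.847. Since 4 group means were fitted, the slope of this covariate rests on the differences between the 2 arrays of a group. Its value was higher on the first array in all 4 groups, so it cannot be fully told apart from the array letter. The median standard error was 0.624 with the covariate and 0.427 without it. Of the 96 named genes, 24 were over 1.5 times smaller with this covariate, 3 were larger by as much and 1 had the other sign. Among those that shrank were Klf4, to -0.98, Cp, to -0.43, Cox5b, to 0.34, Zfp36l1, to -0.29, H2-DMb2, to -0.34, and Saa3, to 0.34, all described below. The 24 genes had 26 further tested probe sets, of which 21 had the same sign and 5 the same sign at an unadjusted p under 0.05. Of the 26, 12 were of Ighm, some of which can report the same RNA; without them the counts were 11 of 14 and 2.

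The rest of the results goes by gene lists. For a list, the probe set of highest mean stood for a gene, and the comparison value is the same count over all 7629 genes: 52% positive and 48% negative, 5.36% positive and 6.71% negative at an unadjusted p under 0.05, and a median interaction of 0.02.

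Heat shock proteins and chaperones fold new or damaged proteins. Their inducible members are switched on by the factor Hsf1, which binds heat shock elements, inverted repeats of GAA, in their promoters. In the list 20 of 48 tested members had a positive and 28 a negative interaction, with a median of -0.14. The median was -0.027 without the first HeOuJ air array, -0.06 without the second HeOuJ ozone array, -0.092 without the first HeJ ozone array and -0.34 with the 5' to 3' ratio as a covariate. At an unadjusted p under 0.05 there were 3 positive and 8 negative members of 48, 22.9% in both directions together. The 8 negative ones were Hspa1a, Hspa1b, Hsp90aa1, Hspa4, Dnaja1, Hspd1, Chordc1 and Hsph1, and the 3 positive ones Fkbp4, Serpinh1 and Cct3; all but Hspa1a, Hspa1b and Hsp90aa1 were chosen for naming after their values were seen.

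Hspa1a, the inducible form of the Hsp70 chaperone, had 424 and 485 on the HeOuJ ozone arrays, against 1961 and 2095 on the HeOuJ air arrays, and 597 and 461 on the HeJ ozone arrays, against 316 and 472 on the HeJ air arrays. The HeOuJ air arrays stood alone at the top, and the other 6 arrays overlapped. Its interaction was -2.60 (SE 0.36, 95% interval -3.43 to -1.78, adjusted p = 0.115). Hspa1b, its neighbouring copy, had 805 and 724 in HeOuJ ozone, 2249 and 1941 in HeOuJ air, 399 and 466 in HeJ ozone and 435 and 439 in HeJ air, an interaction of -1.43 (SE 0.27, 95% interval -2.05 to -0.81, adjusted p = 0.157). Again the HeOuJ air arrays were the highest. The transcripts are nearly identical, so the probe sets may not tell the 2 copies apart. Hsp90aa1, the inducible cytosolic Hsp90, had 4314 and 4562 in HeOuJ ozone, 10417 and 8218 in HeOuJ air, 8152 and 6948 in HeJ ozone and 5931 and 7286 in HeJ air, an interaction of -1.26 (SE 0.24, 95% interval -1.81 to -0.71, adjusted p = 0.157); here HeOuJ ozone was below all other arrays.

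The promoters of the Hspa1a pair and of Chordc1, a partner of Hsp90, are shown because they hold the heat shock element that 6 of 7 negative members held. Each runs from 250 bases before the start of the gene to 50 after it (RefSeq, GRCm38.p6), at chr17:34972107-34972406, minus strand for Hspa1a, chr17:34959189-34959488, minus strand for Hspa1b and chr9:18292017-18292316, plus strand for Chordc1. Capitals mark GAANNTTC or TTCNNGAA, both of which read the same on either strand and may overlap.
Hspa1a: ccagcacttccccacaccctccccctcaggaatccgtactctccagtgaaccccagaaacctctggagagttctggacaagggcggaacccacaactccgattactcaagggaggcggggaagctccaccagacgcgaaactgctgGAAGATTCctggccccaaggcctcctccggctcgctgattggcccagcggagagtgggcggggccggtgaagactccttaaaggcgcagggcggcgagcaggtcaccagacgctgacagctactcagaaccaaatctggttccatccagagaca
Hspa1b: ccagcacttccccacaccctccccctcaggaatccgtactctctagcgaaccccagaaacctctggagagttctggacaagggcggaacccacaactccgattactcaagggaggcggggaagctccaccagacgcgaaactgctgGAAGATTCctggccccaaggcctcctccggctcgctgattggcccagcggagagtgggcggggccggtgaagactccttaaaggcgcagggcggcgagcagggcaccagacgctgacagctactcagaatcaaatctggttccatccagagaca
Chordc1: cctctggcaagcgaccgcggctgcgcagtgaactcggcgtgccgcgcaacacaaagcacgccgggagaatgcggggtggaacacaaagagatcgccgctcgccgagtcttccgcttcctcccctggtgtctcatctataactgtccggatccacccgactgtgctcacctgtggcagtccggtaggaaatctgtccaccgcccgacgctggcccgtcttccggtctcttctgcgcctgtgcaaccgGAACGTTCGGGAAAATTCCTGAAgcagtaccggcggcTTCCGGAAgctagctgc
The Hspa1a and Hspa1b promoters differed at 4 of 300 bases and each held 1 match, 104 bases before the start. Chordc1 held 5, most of them overlapping, from 4 bases before the start onward. Of the 8 negative members 7 had a promoter in the table, and 6 of these 7 held a match; Hspa4 did not. Hspa1a and Hspa1b, with nearly the same promoter, are close to 1 observation. Among the other list members 12 of 32 did (37.5%), including Fkbp4 of positive sign and Hspe1 and Hspb1, which are named after their values were seen. Over the table, 15.1% of 32851 promoters of this length held one. Counted by gene, as for the list members, 4587 of 27025 did (16.97%). A match is a run of letters and not a measured binding site.

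The other negative chaperones had smaller interactions, -1.13 (SE 0.27) for Hspa4, -0.96 (SE 0.26) for Dnaja1, -0.80 (SE 0.28) for the mitochondrial chaperonin Hspd1, -0.76 (SE 0.29) for Chordc1 and -0.64 (SE 0.27) for Hsph1. In each of these 5, ozone over air was below 0 in HeOuJ and above 0 in HeJ. The positive members were Fkbp4, a partner of steroid receptors, at 0.58 (SE 0.18), the collagen chaperone Serpinh1, at 0.63 (SE 0.20), and the chaperonin subunit Cct3, at 0.53 (SE 0.21). Hspa8 and Hspa5, the constitutive Hsp70 proteins of cytosol and endoplasmic reticulum, had -0.12 (SE 0.27) and 0.03 (SE 0.21), and were named after their values were seen. The list thus held members of both signs.

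Immunoglobulin chains gave the highest list median. In this list 24 of 27 tested members had a positive and 3 a negative interaction, 8 positive and 0 negative members had an unadjusted p under 0.05, and the median was 0.79; the median ozone effect was 0.02 in HeOuJ and -0.84 in HeJ. Both HeJ ozone arrays were below both HeJ air arrays in 16 of 27 genes (59.3%), against 17.1% of all probe sets tested. Both HeJ air arrays were above the other 6 in 5 of 27 (18.5%), against 3.24%. Igkv6-23, a light chain gene, had 4201 and 5323 in HeOuJ ozone, 5203 and 6742 in HeOuJ air, 3177 and 3035 in HeJ ozone and 8022 and 8817 in HeJ air, an interaction of 1.11 (SE 0.24, 95% interval 0.56 to 1.66, adjusted p = 0.184). Igkv8-19 had 439 and 440.2 in HeOuJ ozone, 421 and 378 in HeOuJ air, 178 and 148 in HeJ ozone and 548 and 409 in HeJ air, an interaction of 1.69 (SE 0.44). Of 58 immunoglobulin probe sets 49 were positive, but 26 of the 58 are of the kind whose probes match several members of a gene family, so they can report the same RNA and do not count as separate genes. The list median was 0.20 with the 5' to 3' ratio as a covariate and 0.50 with log2(value + 64).

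The genes of B and plasma cells other than antibodies had a smaller median. In that list 16 of 26 tested members had a positive and 10 a negative interaction, 3 positive and 0 negative members had an unadjusted p under 0.05, and the median was 0.26, which became -0.056 with only probe sets above the median intensity. It was 0.086 without the first HeOuJ ozone array, 0.11 without the first HeOuJ air array and 0.16 without the second HeJ air array. The 3 were Ms4a1, the B cell surface protein CD20, at 0.66 (SE 0.23) with 1 probe set and -0.05 (SE 0.38) with the other, the inhibitory receptor Cd22 at 1.55 (SE 0.59) and Cd72 at 1.34 (SE 0.55). Cd22 had 236 and 322 in HeOuJ ozone, 255 and 269 in HeOuJ air, 85.1 and 167 in HeJ ozone and 308 and 354 in HeJ air, with the HeJ ozone arrays alone at the bottom. Both HeJ ozone arrays were below both HeJ air arrays in 11 of the 26 members (42.3%), against 17.1% of all probe sets tested. Both HeJ air arrays were above the other 6 in 4 of 26 (15.4%), against 3.24%. In whole lung, fewer cells of a type and less RNA per cell cannot be told apart. The summed intensity of the list was 16994 and 18328 in HeOuJ ozone, 17955 and 18012 in HeOuJ air, 17621 and 16804 in HeJ ozone and 17646 and 20449 in HeJ air, so the second HeJ air array was the highest and the other 7 overlapped. The part of B and plasma cell number in the immunoglobulin values was not tested.

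MHC class II genes, which present peptides on B cells, macrophages and dendritic cells, had the second highest median, 0.53. There 10 of 12 tested members had a positive and 2 a negative interaction, 5 positive and 1 negative members had an unadjusted p under 0.05, and the median ozone effect was 0.18 in HeOuJ and -0.35 in HeJ. H2-Eb1, the beta chain of the I-E molecule, had 2926 and 3478 on the HeOuJ ozone arrays, against 2500.3 and 2088 on the HeOuJ air arrays, and 3643 and 3446 on the HeJ ozone arrays, against 5116 and 4569.7 on the HeJ air arrays. The HeJ air arrays were the highest and the HeOuJ air arrays the lowest, and the interaction was 0.93 (SE 0.21, 95% interval 0.45 to 1.41, adjusted p = 0.184). Ifi30, a reductase that prepares proteins for class II loading, had 1.15 (SE 0.37), and H2-DMb2, a chain of the peptide exchanger, was the negative one at -1.58 (SE 0.50). Cd74, the invariant chain, had 0.06 (SE 0.26), and Ciita, the master activator of these genes, 0.12 (SE 0.38); both were named after their values were seen.

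Among macrophage markers, 22 of 30 tested members had a positive and 8 a negative interaction, 5 positive and 2 negative members had an unadjusted p under 0.05, and the median was 0.30, or 0.18 without the second HeOuJ air array and 0.068 with the 5' to 3' ratio as a covariate. C1qa, a chain of complement component C1q, had 1943 and 2159.6 in HeOuJ ozone, 1139.5 and 1285 in HeOuJ air, 1779 and 1601 in HeJ ozone and 2301 and 1686 in HeJ air, an interaction of 0.98 (SE 0.25), but its partner C1qb gave -0.80 (SE 0.34). Tyrobp, a signalling adaptor of myeloid cells, had 2859.8 and 3057 in HeOuJ ozone, 2603 and 2665 in HeOuJ air, 1835 and 1542 in HeJ ozone and 2722 and 2332 in HeJ air, an interaction of 0.75 (SE 0.20), with the HeJ ozone arrays below the other 6. Itgam, the CD11b integrin, had 1.66 (SE 0.48) on a dim probe set. Chil3, a chitinase-like lectin that alveolar macrophages make, had 2719 and 2459 in HeOuJ ozone, 7031 and 4978 in HeOuJ air, 2062 and 1729.8 in HeJ ozone and 3060.5 and 2738 in HeJ air, an interaction of -0.58 (SE 0.26, 95% interval -1.17 to 0.01, adjusted p = 0.444). It was lower in ozone than in air on every array of both substrains. C1qb was named after its value was seen.

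Neutrophil markers were mixed: 9 of 16 tested members had a positive and 7 a negative interaction, and 1 positive and 2 negative members had an unadjusted p under 0.05. Lcn2, an iron-binding protein of neutrophils and injured epithelium, had 2695 and 2387 on the HeOuJ ozone arrays, against 1405 and 1571 on the HeOuJ air arrays, and 899 and 918 on the HeJ ozone arrays, against 1296 and 979.9 on the HeJ air arrays. HeOuJ ozone was above all other arrays, and the interaction was 1.08 (SE 0.24, 95% interval 0.53 to 1.64, adjusted p = 0.184). Camp, the cathelicidin of neutrophil granules, had 565 and 847 in HeOuJ ozone, 832 and 842 in HeOuJ air, 1109.8 and 1189.6 in HeJ ozone and 728 and 702 in HeJ air, an interaction of -0.96 (SE 0.31). Csf3r, the receptor for the neutrophil growth factor, gave 3.17 (SE 0.97), -1.34 (SE 1.08) and -0.40 (SE 0.42) from its 3 probe sets, so no direction can be given. T and NK cell markers had a median of 0.01 over 24 genes, and none had an unadjusted p under 0.05; with each array left out in turn the median ran from -0.10 without the first HeOuJ air array to 0.26 without the second HeOuJ ozone array. Cd27, a costimulatory receptor of T cells, had -1.59 (SE 0.52) with its dimmer and 0.02 (SE 0.47) with its brighter probe set. Blood haemoglobin genes had a median of 0.21 over 6, with none at an unadjusted p under 0.05. That median was -0.16 with the 5' to 3' ratio as a covariate, 0.047 without the first HeJ air array, 0.10 without the second HeJ ozone array, 0.39 without the second HeJ air array and 0.47 without the first HeJ ozone array.

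**Figure D3:**
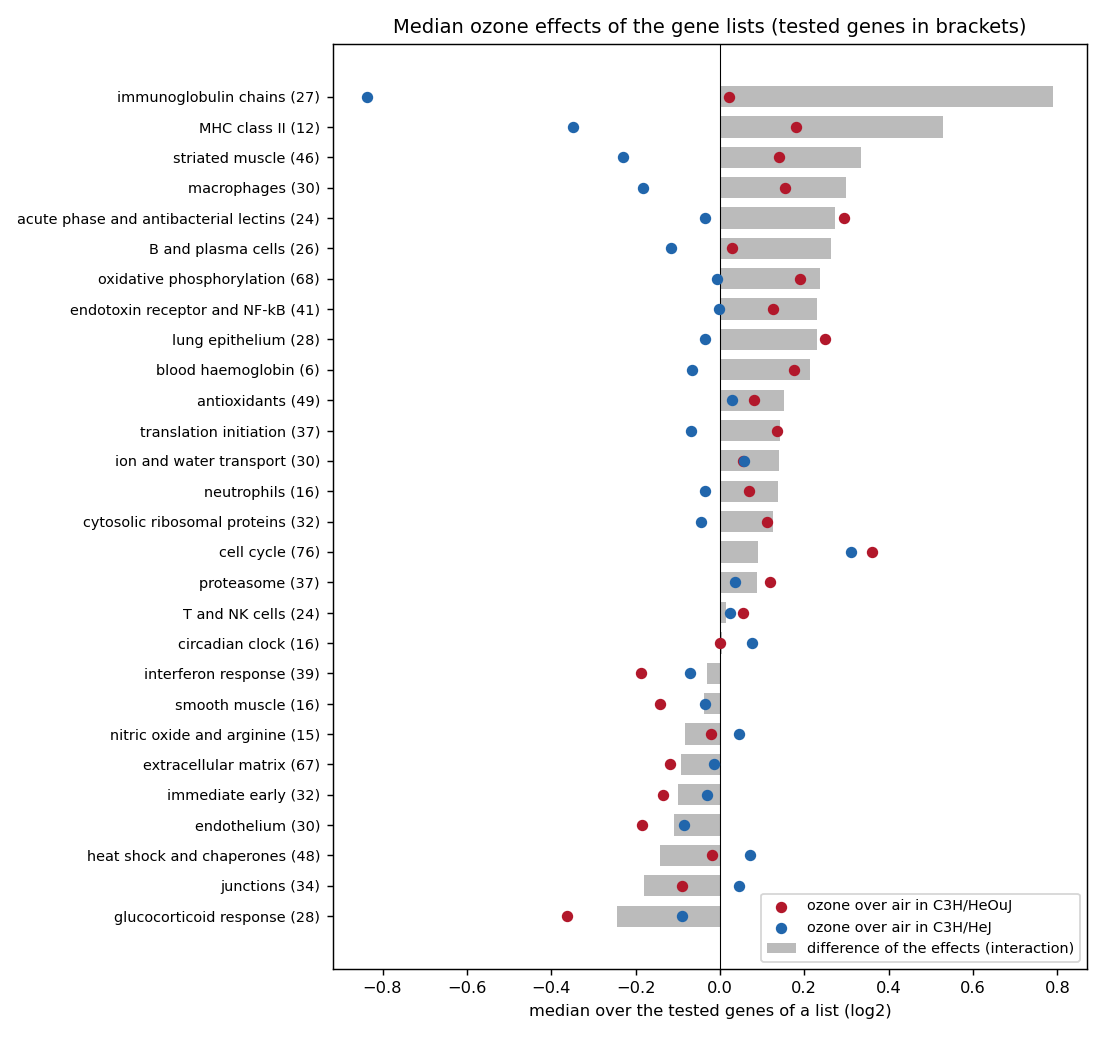
Median over the tested genes of 28 gene lists (x axis, log2; number of tested genes in brackets), with the ozone over air effect in C3H/HeOuJ as red points, in C3H/HeJ as blue points and the interaction as grey bars. Immunoglobulin chains (0.79) and MHC class II (0.53) are at the top, where the C3H/HeJ points lie left of 0, and glucocorticoid response genes (-0.24) at the bottom, where the C3H/HeOuJ point lies left of 0.

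The cells lining the lung were represented by 28 tested markers, 19 positive and 9 negative, with a median of 0.23; the median ozone effect was 0.25 in HeOuJ and -0.04 in HeJ. Quantile normalisation gave a median of 0.13. Of the 28, 7 positive members and 1 negative member had an unadjusted p under 0.05. Besides Krt18 and Reg3g these were Krt19, Krt7, Krt8, Foxa2 and Sftpc on the positive side and Cbr2, a carbonyl reductase of club cells, on the negative side; Krt7, Foxa2, Sftpc and Cbr2 were named after their values were seen. Krt8, the filament partner of Krt18, had 5474 and 6792 in HeOuJ ozone, 3096 and 3031 in HeOuJ air, 4611 and 3759.9 in HeJ ozone and 3632 and 3334 in HeJ air, an interaction of 0.73 (SE 0.22, 95% interval 0.23 to 1.23, adjusted p = 0.275). Krt19 had 8408 and 9683 in HeOuJ ozone, 5335 and 5256 in HeOuJ air, 5949.7 and 5151 in HeJ ozone and 6299 and 5075 in HeJ air, an interaction of 0.80 (SE 0.22), and its second probe set gave 1.05 (SE 0.40). In 7 of the 28 markers (25%) both HeOuJ ozone arrays were above the other 6, against 11.9% of all probe sets tested. Krt18, Krt8 and Krt19 were among the 7. Krt19 was picked for naming by p, Krt8 as a gene followed for its role in lung injury, and Krt18 by both. Scgb1a1, the main secretory protein of club cells, had 68065 and 62015 in HeOuJ ozone, 54108 and 40169 in HeOuJ air, 54557 and 40184 in HeJ ozone and 62463 and 47889 in HeJ air, an interaction of 0.70 (SE 0.41, 95% interval -0.22 to 1.63, adjusted p = 0.567). It was close to 0 (SE 0.50) with the 5' to 3' ratio as a covariate.

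Acute phase proteins and antibacterial lectins had 14 positive and 10 negative members of 24, and 4 positive and 1 negative members had an unadjusted p under 0.05. Their median of 0.27 became -0.083 without the first HeOuJ ozone array, 0.14 without the second HeOuJ ozone array and 0.48 without the second HeOuJ air array; a floor at the 30th percentile gave 0.063 and one at the 10th 0.59. Saa3, a serum amyloid made in injured lung, had 2562 and 2167 on the HeOuJ ozone arrays, against 397 and 558 on the HeOuJ air arrays, and 979 and 1086 on the HeJ ozone arrays, against 551 and 280.1 on the HeJ air arrays. It was higher in ozone than in air on every array of both substrains, and the interaction was 0.93 (SE 0.45, 95% interval -0.10 to 1.96, adjusted p = 0.489). Cp, the copper-carrying ferroxidase ceruloplasmin, was negative: 1421 and 1489 in HeOuJ ozone, 2382 and 3533 in HeOuJ air, 2845 and 3178 in HeJ ozone and 2444 and 3133 in HeJ air, an interaction of -1.12 (SE 0.29, 95% interval -1.77 to -0.46, adjusted p = 0.231).

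Genes of the endotoxin receptor pathway and NF-kB bear on the known difference between the substrains. Of 41 tested, 25 were positive and 16 negative, 2 positive and 1 negative members had an unadjusted p under 0.05, and the median was 0.23. The 3 together make 7.32% of the list. The median was -0.09 with the 5' to 3' ratio as a covariate, 0.10 without the second HeOuJ air array, 0.12 without the first HeOuJ ozone array and 0.13 without the first HeJ air array.

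Cd14, the coreceptor that hands endotoxin to Tlr4, had 2797 and 3696 on the HeOuJ ozone arrays, against 2573 and 2285 on the HeOuJ air arrays, and 2584 and 2714 on the HeJ ozone arrays, against 2480.2 and 2593 on the HeJ air arrays. Both HeOuJ ozone arrays were above the other 6, the first of them narrowly, and the interaction was 0.34 (SE 0.22, 95% interval -0.16 to 0.85, adjusted p = 0.607). Tnf, the cytokine, had 231 and 247 in HeOuJ ozone, 103 and 73.4 in HeOuJ air, 51.3 and 57.1 in HeJ ozone and 63.8 and 55.9 in HeJ air. It was above the floor of 69.6 on all HeOuJ arrays and on no HeJ array, and its interaction of 1.46 (SE 0.42, 95% interval 0.49 to 2.42, adjusted p = 0.266) leaves the HeJ effect unmeasured. Il6, a further NF-kB target, had 152 and 81 in HeOuJ ozone, 42.2 and 32.5 in HeOuJ air, 11.6 and 13.3 in HeJ ozone and 15.3 and 13.2 in HeJ air; only the HeOuJ ozone arrays were above the floor, and the interaction was 0.67 (SE 0.47).

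Cxcl2, a chemokine that draws neutrophils, had 111 and 85.6 in HeOuJ ozone, 156 and 17.8 in HeOuJ air, 59.8 and 95.5 in HeJ ozone and 167 and 97.9 in HeJ air. Its interaction was 0.55 (SE 0.65, 95% interval -0.93 to 2.04, adjusted p = 0.8) and turned to -0.85 with the 5' to 3' ratio as a covariate. Nos2, the inducible nitric oxide synthase, had 297 and 61.2 in HeOuJ ozone, 108 and 135 in HeOuJ air, 148 and 135 in HeJ ozone and 153 and 69.4 in HeJ air. The 2 HeOuJ ozone arrays were the highest and the lowest of all 8, and the interaction of -0.20 (SE 0.93, 95% interval -2.32 to 1.91, adjusted p = 0.967) changed sign in 3 of 19 alternative settings. Vcam1 and Icam1, adhesion molecules that hold white cells to vessels, had opposite signs, -1.06 (SE 0.32) and 0.58 (SE 0.21). Vcam1 had 924 and 683 in HeOuJ ozone, 1666 and 1239 in HeOuJ air, 1508 and 1599 in HeJ ozone and 1169 and 1560.0 in HeJ air, with HeOuJ ozone below the other 6; its further probe sets gave -0.75 (SE 0.36) and -0.03 (SE 0.32). Icam1 was named after its value was seen. Ikbkg, the scaffold of the kinase that releases NF-kB, gave -1.01 (SE 0.32) and 0.09 (SE 0.45) from its 2 probe sets. In the nitric oxide and arginine list 6 of 15 tested members had a positive and 9 a negative interaction, and none had an unadjusted p under 0.05.

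Junction genes hold epithelial and endothelial cells together and set how leaky a barrier is. Here 14 of 34 tested members had a positive and 20 a negative interaction, 3 positive and 4 negative members had an unadjusted p under 0.05, and the median was -0.18, or -0.063 without the first HeOuJ ozone array. Tjp1, the tight junction scaffold ZO-1, had 2657 and 2952 on the HeOuJ ozone arrays, against 6649.7 and 6608 on the HeOuJ air arrays, and 6963 and 5780.0 on the HeJ ozone arrays, against 4867 and 7021 on the HeJ air arrays. Both HeOuJ ozone arrays were below the other 6, and the interaction was -1.36 (SE 0.26, 95% interval -1.96 to -0.76, adjusted p = 0.157). Its second probe set was above the floor only in HeOuJ ozone and gave 1.25 (SE 0.53), the opposite sign. Vcl, which anchors actin at adhesions, had 4892 and 4878 in HeOuJ ozone, 6148 and 6894 in HeOuJ air, 6329.9 and 6498 in HeJ ozone and 5581 and 6075 in HeJ air, an interaction of -0.55 (SE 0.18), against 1.01 (SE 0.68) with its dimmer probe set. Dsg2, a desmosomal cadherin, had 157 and 216 in HeOuJ ozone, 433 and 494 in HeOuJ air, 362 and 437 in HeJ ozone and 399 and 378 in HeJ air, an interaction of -1.36 (SE 0.44), against 1.23 (SE 0.99) with its dimmer probe set. The claudins differed in sign: Cldn1 had 1.30 (SE 0.49), Cldn3 0.47 (SE 0.20) and Cldn4 -1.39 (SE 0.89), all named after their values were seen.

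Endothelial markers had 10 positive and 20 negative members of 30, 0 positive and 4 negative members had an unadjusted p under 0.05, and a median of -0.11, which became 0.064 without the second HeOuJ air array and 0.063 with the 5' to 3' ratio as a covariate. It was -0.023 without the first HeOuJ ozone array, -0.067 without the second HeOuJ ozone array, -0.056 without the second HeJ ozone array and -0.023 without the second HeJ air array. Both HeOuJ ozone arrays were below the other 6 in 8 of 30 (26.7%), against 9.6% of all probe sets tested. Emcn, a sialomucin of capillaries and veins, had 1325 and 1384 in HeOuJ ozone, 2191 and 2107 in HeOuJ air, 1938 and 2117 in HeJ ozone and 1723 and 1993 in HeJ air, an interaction of -0.79 (SE 0.19, 95% interval -1.23 to -0.36, adjusted p = 0.213); its further probe sets gave -0.72 (SE 0.27) and -1.09 (SE 0.66). Flt4, the receptor of lymphatic vessels, had 441 and 561 in HeOuJ ozone, 954 and 1628 in HeOuJ air, 1068 and 1315 in HeJ ozone and 1257 and 1129 in HeJ air, an interaction of -1.32 (SE 0.38). Sox18, a transcription factor of the endothelium, was positive, at 0.68 (SE 0.18) and 0.19 (SE 0.24) with its 2 probe sets. The summed intensity of the list was 98474 and 104254 in HeOuJ ozone, 105821 and 120716 in HeOuJ air, 108264 and 106367 in HeJ ozone and 118927 and 111857 in HeJ air.

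Extracellular matrix genes had 26 positive and 41 negative members of 67, 4 positive and 7 negative members had an unadjusted p under 0.05, and a median of -0.09. With each array left out the median ran from -0.15 without the first HeOuJ air array to -0.009 without the second HeJ ozone array, and it was also nearer to 0 at -0.017 without the second HeJ air array, -0.026 without the second HeOuJ air array and -0.057 without the first HeOuJ ozone array. Lox, which crosslinks collagen and elastin, had 624 and 726 on the HeOuJ ozone arrays, against 1834 and 1530.3 on the HeOuJ air arrays, and 692 and 818 on the HeJ ozone arrays, against 551 and 755 on the HeJ air arrays. As with Hspa1a, the HeOuJ air arrays stood above the other 6, and the interaction was -1.54 (SE 0.31, 95% interval -2.24 to -0.83, adjusted p = 0.172). Its dimmer probe set gave -0.83 (SE 0.77). Col9a1 and Mmp11, given above, were the positive members of smallest p. The negative members also held Col1a1, Col6a1, Col6a3, Lum, Postn and Timp3, with values between -1.41 and -0.42, named after they were seen.

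Smooth muscle genes showed no common direction, with 8 positive and 8 negative of 16. At an unadjusted p under 0.05 there were 2 positive and 2 negative members, 25% together. The positive ones were Tpm1, at 0.58 (SE 0.18), and Csrp1, at 0.68 (SE 0.21) and 0.53 (SE 0.18) with its 2 probe sets. The negative ones were Vcl, given above, and Mylk, at -0.54 (SE 0.20), which was named after its value was seen. Striated muscle genes, which in lung samples can come from the muscle of the pulmonary veins and from any heart or body wall tissue taken along, had 33 positive and 13 negative members of 46, 8 positive and 0 negative members had an unadjusted p under 0.05, and a median of 0.33, or 0.55 with only probe sets above the median intensity. Their summed intensity was 53098 and 54575 in HeOuJ ozone, 50992 and 48095 in HeOuJ air, 42581 and 44199 in HeJ ozone and 52959 and 49141 in HeJ air. It was lowest on the HeJ ozone arrays, and both of those were below both HeJ air arrays in 20 of 46 genes (43.5%), against 17.1% of all probe sets tested. Myh6, a myosin heavy chain of heart muscle, had 2929.8 and 2763 in HeOuJ ozone, 2191 and 2206 in HeOuJ air, 1568 and 1603 in HeJ ozone and 2227 and 1709 in HeJ air, an interaction of 0.67 (SE 0.21). Myl2, a ventricular myosin light chain, was above the floor only on the HeJ air arrays, at 191 and 194, and its fitted interaction of 1.47 (SE 0.37) depends on where the floor lies. The part of muscle tissue in the sample was not tested. Atp2a1, a calcium pump of fast muscle, had 1.85 (SE 0.55), on a dim probe set with all HeOuJ air and HeJ ozone arrays below the floor, which gave 0.39 to 3.93 over the settings, and 0.45 (SE 0.84) from its 2 probe sets.

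**Figure D4:**
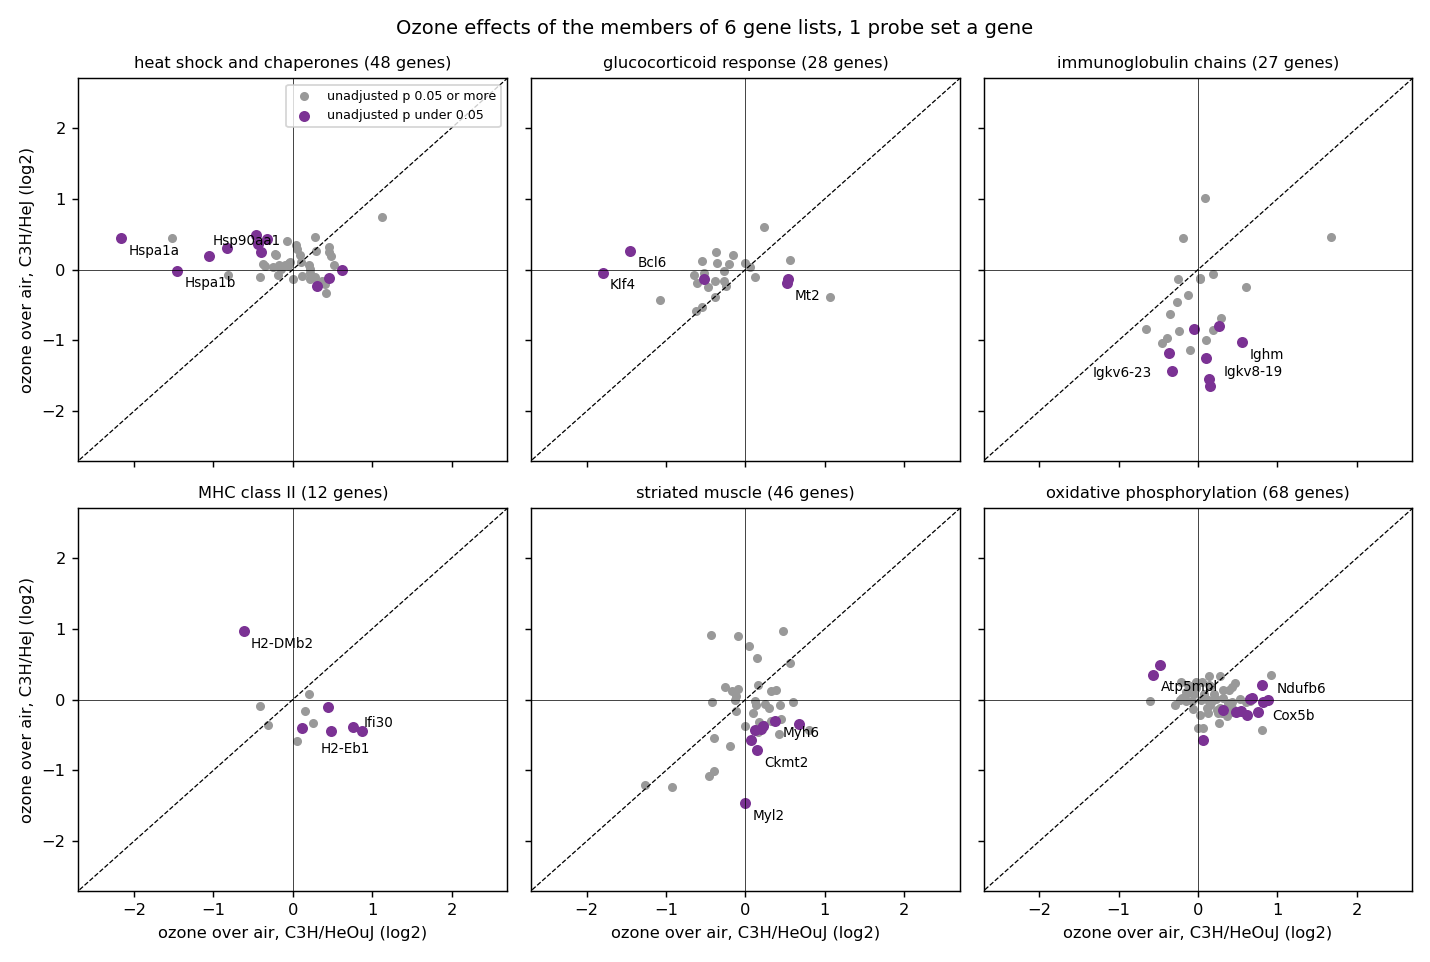
Ozone over air effects in C3H/HeOuJ (x axis, log2) and C3H/HeJ (y axis, log2) of the members of 6 lists, with the dashed line at equal effects and members of unadjusted p under 0.05 in purple. Chaperones spread along the C3H/HeOuJ axis to -2.16 for Hspa1a, while most immunoglobulin chains lie below 0 on the C3H/HeJ axis, with a median of -0.84 there.

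Subunits of mitochondrial oxidative phosphorylation, the respiratory chain and ATP synthase, had 45 positive and 23 negative members of 68, and 11 positive and 2 negative members had an unadjusted p under 0.05, 19.1% together. The median was 0.24; the median ozone effect was 0.19 in HeOuJ and -0.01 in HeJ. Cox5b, a subunit of cytochrome c oxidase, had 4378 and 3899 on the HeOuJ ozone arrays, against 2493 and 2211 on the HeOuJ air arrays, and 2559 and 2316 on the HeJ ozone arrays, against 2850.0 and 2185 on the HeJ air arrays. HeOuJ ozone was above the other 6 arrays, which overlapped, and the interaction was 0.85 (SE 0.23, 95% interval 0.33 to 1.37, adjusted p = 0.24). Ndufb6, of complex I, had 5467 and 6784 in HeOuJ ozone, 3749 and 2921 in HeOuJ air, 3381 and 3129 in HeJ ozone and 3757 and 2826 in HeJ air, an interaction of 0.88 (SE 0.27). Atp5c1, the central stalk of ATP synthase, had 0.74 (SE 0.19) and 0.20 (SE 0.26) from its 2 probe sets. Both HeOuJ ozone arrays were above the other 6 in 20 of 68 members (29.4%), against 11.9% of all probe sets tested. With the 5' to 3' ratio as a covariate the list median was 0.07.

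The proteasome, which degrades tagged proteins, had members on both sides: 20 of 37 tested members had a positive and 17 a negative interaction, and 8 positive and 4 negative members had an unadjusted p under 0.05, 32.4% together. Psma4, an alpha ring subunit, had 1652 and 2074 in HeOuJ ozone, 3304 and 3448 in HeOuJ air, 2794 and 3212 in HeJ ozone and 2467 and 2905 in HeJ air, an interaction of -1.03 (SE 0.22, 95% interval -1.54 to -0.52, adjusted p = 0.184). Psma7, another alpha ring subunit, had 4456 and 3742 in HeOuJ ozone, 2408 and 1902 in HeOuJ air, 2157 and 2333 in HeJ ozone and 2315 and 2063 in HeJ air, an interaction of 0.89 (SE 0.23, 95% interval 0.38 to 1.41, adjusted p = 0.225). HeOuJ ozone was thus below the other 6 arrays for Psma4 and above them for Psma7, although their proteins sit in the same ring. Psmd11, of the regulatory cap, had -1.13 (SE 0.25), 0.64 (SE 0.58) and a value close to 0 from its 3 probe sets.

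Cytosolic ribosomal proteins had 20 positive and 12 negative members of 32, and 4 positive and 1 negative members had an unadjusted p under 0.05. Rps7 and Rpsa had 0.83 (SE 0.32) and 0.46 (SE 0.18), and the dim probe set of Rps20 -1.41 (SE 0.49). In translation initiation 22 of 37 tested members had a positive and 15 a negative interaction, and 2 positive and 1 negative members had an unadjusted p under 0.05: Eif4a2, given above, against Eif3d, a subunit of the factor that binds the small ribosomal subunit, at 0.78 (SE 0.18), and Eif2b4, at 0.66 (SE 0.28). Eif3d had 3224 and 2854 in HeOuJ ozone, 2254 and 2125 in HeOuJ air, 1913 and 1949 in HeJ ozone and 2294 and 2505 in HeJ air, highest in HeOuJ ozone and lowest in HeJ ozone.

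Antioxidant genes had 31 positive and 18 negative members of 49, 7 positive and 2 negative members had an unadjusted p under 0.05, and a median of 0.15, or 0.068 without the second HeOuJ air array, 0.091 without the second HeOuJ ozone array and 0.035 with the 5' to 3' ratio as a covariate. The metallothioneins Mt2 and Mt1, which bind zinc and scavenge radicals, had interactions of 0.72 (SE 0.19, 95% interval 0.28 to 1.17, adjusted p = 0.241) and 0.66 (SE 0.22). Mt2 had 5183 and 5174 in HeOuJ ozone, 3940.4 and 3264 in HeOuJ air, 3586 and 3383 in HeJ ozone and 4244 and 3738 in HeJ air, with HeOuJ ozone above the other 6. Gpx4, which repairs oxidised membrane lipids, had 2112 and 2424 in HeOuJ ozone, 1524 and 1801 in HeOuJ air, 1770.1 and 1816 in HeJ ozone and 2055 and 1981 in HeJ air, an interaction of 0.62 (SE 0.20). Gstm5, a glutathione transferase, gave 2.65 (SE 0.71), -0.81 (SE 0.51) and -0.33 (SE 0.21) from its 3 probe sets, so no direction can be given. Gpx1 and the extracellular dismutase Sod3, the negative members, had -0.51 (SE 0.19) and -1.34 (SE 0.47) and were named after their values were seen.

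Glucocorticoid response genes had the lowest median, -0.24, or -0.13 without the second HeOuJ air array and -0.14 with the 5' to 3' ratio as a covariate: 7 of 28 tested members had a positive and 21 a negative interaction, while 2 positive and 3 negative members had an unadjusted p under 0.05. The positive ones were Mt1 and Mt2, which zinc and oxidants also switch on. Bcl6, a repressor in lymphocytes and macrophages, had 522 and 493 on the HeOuJ ozone arrays, against 1249 and 1538 on the HeOuJ air arrays, and 1114 and 1337 on the HeJ ozone arrays, against 880.1 and 1181 on the HeJ air arrays, an interaction of -1.71 (SE 0.29, 95% interval -2.38 to -1.04, adjusted p = 0.156). Klf4, a transcription factor of epithelium and endothelium, had 1027 and 762 in HeOuJ ozone, 2665 and 3547 in HeOuJ air, 2138 and 2228 in HeJ ozone and 1680.0 and 3009 in HeJ air, an interaction of -1.75 (SE 0.39, 95% interval -2.65 to -0.86, adjusted p = 0.184). Both were lowest on the HeOuJ ozone arrays. Errfi1, the third negative member, had -0.39 (SE 0.16), and was named after its value was seen. Anxa1, which mediates part of the steroid's effect on inflammation, gave 0.93 (SE 0.21), 0.42 (SE 0.28) and 0.19 (SE 0.27) from its 3 probe sets.

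Among immediate early genes, 14 of 32 tested members had a positive and 18 a negative interaction, and 2 positive and 4 negative members had an unadjusted p under 0.05. Besides Klf4, Dusp6, a phosphatase that shuts off Erk kinase, had 2426 and 3130.2 in HeOuJ ozone, 3541 and 3834 in HeOuJ air, 3849.7 and 4075 in HeJ ozone and 2669 and 3125 in HeJ air, an interaction of -0.87 (SE 0.22), and Zfp36l1, which destabilises messenger RNA, -0.94 (SE 0.28). In the circadian clock list 8 members were positive and 8 negative, and Nr1d2, Arntl and Clock had -1.60 (SE 0.44), 0.76 (SE 0.29) and -0.94 (SE 0.36); its median of 0.01 had the other sign in 8 of 21 settings, down to -0.081 without the second HeJ air array, and median centring was one of them. These 3 code for regulators of the clock's feedback loop.

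Interferon response genes had 18 positive and 21 negative members of 39, and 3 positive and 7 negative members had an unadjusted p under 0.05, 25.6% together. Iigp1, an immunity-related GTPase, had 816 and 658 in HeOuJ ozone, 1316 and 1312 in HeOuJ air, 1238 and 1166 in HeJ ozone and 993 and 982 in HeJ air, an interaction of -1.13 (SE 0.23, 95% interval -1.66 to -0.59, adjusted p = 0.176). Gbp7, a guanylate-binding protein, had 946 and 678 in HeOuJ ozone, 1355 and 1373 in HeOuJ air, 1347 and 1339 in HeJ ozone and 939 and 984 in HeJ air, an interaction of -1.25 (SE 0.26, 95% interval -1.85 to -0.66, adjusted p = 0.176). Ifi204, a DNA sensor, had 49.2 and 127 in HeOuJ ozone, 413 and 329.7 in HeOuJ air, 366 and 319 in HeJ ozone and 206 and 279 in HeJ air, an interaction of -2.48 (SE 0.58), with a second probe set at -1.63 (SE 0.78). HeOuJ ozone was below the other 6 arrays for Iigp1 and Ifi204 and overlapped HeJ air for Gbp7. The positive members were Psmb8, Psmb10 and Isg20, at 0.65 (SE 0.23), 0.56 (SE 0.23) and 0.51 (SE 0.18), named after their values were seen; Psmb8 and Psmb10 are proteasome subunits and are also in that list.

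Cell cycle genes had positive medians in both substrains: the median ozone effect was 0.36 in HeOuJ and 0.31 in HeJ, and the median interaction was 0.09. This median interaction became -0.084 with the 5' to 3' ratio as a covariate, -0.0022 without the first HeOuJ air array and 0.0048 without the first HeOuJ ozone array, 0.034 without the first HeJ air array, 0.045 without the second HeOuJ air array and 0.058 without the second HeJ ozone array. Of 76 tested, 1 positive and 2 negative members had an unadjusted p under 0.05, 3.95% together. Both HeOuJ ozone arrays were above both HeOuJ air arrays in 35 members (46.1%), against 23% of all probe sets tested. Smc4, a condensin subunit, had 687 and 806 in HeOuJ ozone, 1313 and 1070.4 in HeOuJ air, 1292 and 1373 in HeJ ozone and 697 and 994 in HeJ air, an interaction of -1.35 (SE 0.30). Plk1, the mitotic kinase, gave 1.51 (SE 0.48) with a dim and 0.12 (SE 0.48) and -0.02 (SE 0.67) with brighter probe sets, and Tk1, thymidine kinase, 2.59 (SE 1.01) and -1.37 (SE 0.79).

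Ion and water transport genes, read for their link to fluid in the airspace, had 19 positive and 11 negative members of 30, and 2 positive and 3 negative members had an unadjusted p under 0.05. Apart from Wnk1, Clcn4, an exchanger of chloride and protons in endosomes, had 275 and 275 in HeOuJ ozone, 785 and 1022 in HeOuJ air, 887 and 1051 in HeJ ozone and 417 and 751 in HeJ air, an interaction of -2.49 (SE 0.43, 95% interval -3.48 to -1.51, adjusted p = 0.156) with 1 probe set, and 0.24 (SE 0.25) with the brighter one. Nedd4l, a ubiquitin ligase that removes the epithelial sodium channel, had 0.86 (SE 0.23), and was named after its value was seen.

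Finally, the sign of the interaction went with the length of the gene on the chromosome. The median span was 10.99 kb for the 409 genes positive at an unadjusted p under 0.05, 30.7 kb for the 511 negative ones with a known position and 19.4 kb for 7619 genes tested (RefSeq, GRCm38.p6). In the fifth of shortest genes, up to 6.215 kb, 8.92% were positive and 4.2% negative at that p. In the fifth of longest genes, from 58.18 kb, 2.36% were positive and 9.58% negative. Over genes, which share the same 8 arrays and are not replicates, Spearman's rho of interaction and span was -0.134. By array, the median level of the longest genes minus their 8-array mean was -0.01 and -0.09 in HeOuJ ozone, 0.03 and 0.02 in HeOuJ air, 0.03 and 0.05 in HeJ ozone and -0.01 and 0.01 in HeJ air. The shortest genes were at 0.11 and 0.06 in HeOuJ ozone, 0.01 and -0.06 in HeOuJ air, -0.03 and -0.05 in HeJ ozone and 0.01 and -0.06 in HeJ air. The group of highest 5' to 3' ratio, HeOuJ ozone, was thus also the one with the highest short genes, and the part of RNA quality in this was not tested.

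**Figure D5:**
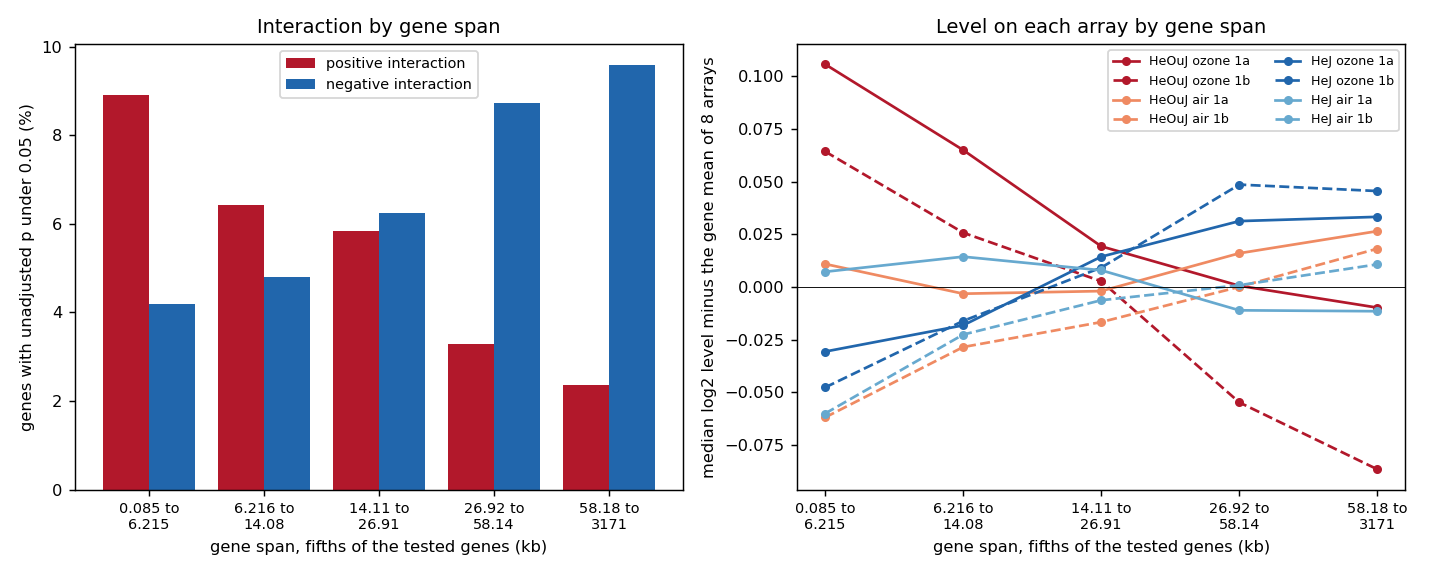
Left, the share of genes (%) at an unadjusted p under 0.05 with a positive (red) or negative (blue) interaction, by gene span in kb, in 5 equal-sized groups on the x axis. Right, the median log2 level minus the gene's mean over 8 arrays, for each array: the lines of the HeOuJ ozone arrays fall from short to long genes, from 0.11 and 0.06 to -0.01 and -0.09, and those of the HeJ ozone arrays run the other way.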

How the data were processed

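Lung RNA of 4 groups was measured on 8 Affymetrix arrays, 2 in each group, and the authors deposited intensity values on a linear scale for 12488 probe sets, 66 of them controls. The software and scaling behind the deposited values are not given in the sources used here. Their mean without the highest and lowest 2% of values was 800.4 on every array, so a common scaling had been applied. The array images were not analysed here. Values under a floor of 69.6 (log2 6.12), the 20th percentile of all values, were raised to it. A probe set entered the test if 2 or more of the 8 arrays exceeded the floor, which kept 10953 and left out 1469. limma 3.58.1 in R 4.3.3 fitted 4 group means on the log2 scale with an intensity trend, and the two-sided moderated test of the interaction had 4 residual and 4.54 prior degrees of freedom. Benjamini-Hochberg adjustment ran over all tested probe sets. The script was checked on simulated data.

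Platform annotation gave 10833 probe sets 1 gene, 396 several and 1193 none. A gene named on its own is given by its probe set of smallest p and list counts use its probe set of highest mean. The named genes are the 12 of smallest p in each direction, genes past the threshold under quantile normalisation or among probe sets above the median intensity, up to 3 members of smallest p in each of 28 lists, and genes followed for their role in lung injury. Any other gene is said to have been named after its value was seen. Members and lists were chosen with earlier results of these data known. Replicate names 1a and 1b are not explained by the labels. Alternatives covered normalisation, floor, filter, variance model, array weights, replicate block, 5' to 3' ratio and each array left out. Averaging a gene's probe sets, for list medians, was added after seeing the data. Figures were drawn with matplotlib 3.10.9.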

Additional observations from a re-analysis of the deposited data

Results flagged for a closer look

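The 5' to 3' ratio of the control probe sets, which entered the gene comparison only as a covariate in 1 alternative setting, was higher on both HeOuJ ozone arrays than on all 4 air arrays. For actin it was 0.766 and 0.756 in HeOuJ ozone, against at most 0.603 in air, and for Gapdh 1.34 and 1.18 in HeOuJ ozone, against at most 1.06 in air.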

How the results depend on the processing

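With 2 arrays in each group, and no statement that they came from separate animals, the counts depend on the setting. The count at an adjusted p under 0.05, 0 in the report, was 3 with quantile normalisation, 3 with a floor at the 10th percentile, 3 with a floor at the 30th percentile, 9 with log2(value + 64), 10 with no filter on dim probe sets and 9 with only probe sets above the median intensity. Most calls of the setting with no filter were above the floor on only 2 arrays, such as Myl2, and values raised to the floor have no spread. None of these calls was made in the other settings. At an adjusted p under 0.10 the report's own setting gave 3. The count at an adjusted p under 0.05 stayed at 0 with median centring, no intensity trend, robust eBayes and array weights. Leaving out each array in turn gave 0 to 10. Correlations of the differences between the 1a and 1b arrays ran from -0.0101 to 0.138 over the 6 pairs of groups, and the Gapdh ratio was higher on 1a than on 1b in all 4 groups. Since not every pair exceeded 0.1, the letters were not taken to pair the samples. With the replicate block the count was 0 and the smallest adjusted p 0.0932, with 637 positive and 730 negative probe sets at an unadjusted p under 0.05. With the 5' to 3' ratio as a covariate there were 262 positive and 355 negative, together 617 or 5.63% of those tested. Of these 617, 302 were also among the 1252 of the report. The interactions of this setting correlated with those of the report at 0.627. Leaving out each array gave 309 to 832 positive and 446 to 857 negative. Nos2 changed sign with a floor at the 30th percentile (0.59), without the second HeOuJ ozone array (0.84) and without the second HeJ air array (0.36), and ranged from -1.25 to 0.84 with each array left out. Cxcl2 changed sign with the covariate (-0.85) and without the second HeOuJ air array (-0.032), and ranged from -0.032 to 1.14 with each array left out. The cause was not tested for these. The other values of named genes kept their sign, 32 of them passing the threshold where the report's value did not. For genes chosen by p on these same arrays a kept sign is likely. Of the list medians 533 moved by less than the spread between single-array values and 55 by more.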
